A study of Homo sapiens with 4 samples.

Results

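Antisense and divergent long non-coding RNAs (lncRNAs) were compared between 4 h and 8 h of merbarone in hTERT RPE-1 cells. They are lncRNA genes whose symbol ends in -AS and a digit (antisense to the named gene) or in -DT (divergent transcript of the named gene). The gene lists hold 733 of them among 23459 genes, 613 ending in -AS and 120 in -DT. Of these, 244 (187 -AS and 57 -DT) had a CPM, the count scaled to a library of equal size, above 1 in 2 or more of the 4 libraries, and were tested among 12559 retained genes. The other 489 did not enter the main test: 254 had no count in any library and 235 had some. Just inside the limit stood PRKG1-AS1, with 12 and 6 counts at 4 h and 10 and 7 at 8 h. Just outside stood RPL26L1-AS1, with 4 and 12 counts at 4 h and 4 and 8 at 8 h. Passage of this limit was uneven between the times. Of the retained members, 16 exceeded it in 4 h libraries alone and 0 in 8 h libraries alone. The other 228 exceeded it in at least 1 library of each time. Each of the 16 had to be high at 4 h to be retained, so the values of the 16 are descriptions that support nothing. The main counts are therefore also given over the 228. The 228 are not free of this selection, since some, such as PCGF3-AS1, TMCC1-DT and LPP-AS2, had 1 library at 8 h under the limit.

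RPE-1 is a wild-type retinal pigment epithelial line immortalized with telomerase. All cells were serum starved for 48 h in 0.1% serum and then exposed to 200 μM merbarone, a catalytic inhibitor of type II topoisomerases, for 4 h (2 replicates) or 8 h (2 replicates). Both groups were treated, untreated cells were not analysed here, and 4 more hours of drug cannot be told apart from 4 more hours in low serum. One cell line was used, and bulk CPM cannot tell fewer cells from less RNA per cell.

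An antisense lncRNA is copied from the strand opposite to a gene, across its body or from its start. A divergent lncRNA starts near the promoter of a gene and runs away from it, so that a pair of RNAs leaves one promoter region in opposite directions. Many such RNAs are short-lived: early poly(A) signals end them, and the nuclear exosome, an RNA-degrading complex brought to them by cap-bound adaptors, removes most copies. The libraries were made from polyadenylated RNA, so only the polyadenylated forms were counted.

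The libraries held 8064450 to 10324697 counts, lowest in replicate 2 at 8 h. Of the retinal pigment epithelium markers, MITF (78.4 to 89.7 CPM) and OTX2 (at least 16.4 CPM) were present. PMEL was at 0.687 to 1.49 CPM. RPE65, RLBP1, BEST1, LRAT, TTR, TYR and TYRP1, known from mature pigment epithelium, were under 1 CPM in every library, and PTPRC of blood, PECAM1 of endothelium and MLANA of melanocytes were at or near 0.

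Positions were read on GRCh37 (hg19), where 232 of the 244 could be placed. Head-to-head pairs, on opposite strands with annotated starts within 1 kb, made up 132 members, and 83 of these had the starts within 300 bases. In 83 further members the exons of lncRNA and partner overlapped without a head-to-head start. In 11 the gene bodies overlapped but not the exons, and in 5 the genes lay apart. The exons of 175 members overlapped an exon on the opposite strand, and those of 57 did not. The library kit keeps the strand, but whether the counting used it is not given in the sources used here, so the counts of overlapping pairs are uncertain.

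In 105 head-to-head pairs RefSeq (GRCh38.p14) gave promoters of both genes. Where a gene had several starts, the nearest starts of the pair that point away from each other were taken. Such starts were found in 82 pairs, with a median of 139.5 bases between them. The DNA between the starts is shown for 6 pairs. In 3 the lncRNA and partner moved in opposite directions (TMCC1-DT, DICER1-AS1, ZEB1-AS1), in 2 both fell (CEP83-DT, ZNF594-DT) and in 1 both rose (MAP4K3-DT). DICER1-AS1 and CEP83-DT were retained through their 4 h libraries alone, so their falls were built into their selection. Each stretch is read 5′ to 3′ in the direction of the lncRNA, from just after the partner's start to just before the lncRNA's. Capitals mark GGGCGG and CCAAT on either strand, letters known from the sites of SP1-family factors and of NF-Y.
TMCC1-DT: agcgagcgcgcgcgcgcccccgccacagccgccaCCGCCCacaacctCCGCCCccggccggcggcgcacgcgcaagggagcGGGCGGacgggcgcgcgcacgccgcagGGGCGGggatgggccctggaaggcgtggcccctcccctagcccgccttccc
DICER1-AS1: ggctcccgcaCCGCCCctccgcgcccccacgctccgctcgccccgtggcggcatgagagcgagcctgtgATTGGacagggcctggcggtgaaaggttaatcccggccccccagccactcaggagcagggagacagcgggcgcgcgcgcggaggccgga
ZEB1-AS1: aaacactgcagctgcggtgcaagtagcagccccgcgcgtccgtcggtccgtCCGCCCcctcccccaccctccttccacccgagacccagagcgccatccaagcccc
CEP83-DT: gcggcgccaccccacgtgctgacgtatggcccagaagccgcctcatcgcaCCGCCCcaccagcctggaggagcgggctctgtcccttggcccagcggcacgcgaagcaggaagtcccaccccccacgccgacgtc
ZNF594-DT: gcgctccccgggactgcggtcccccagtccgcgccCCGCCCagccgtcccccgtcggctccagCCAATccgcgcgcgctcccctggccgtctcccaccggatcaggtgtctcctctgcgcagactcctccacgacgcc
MAP4K3-DT: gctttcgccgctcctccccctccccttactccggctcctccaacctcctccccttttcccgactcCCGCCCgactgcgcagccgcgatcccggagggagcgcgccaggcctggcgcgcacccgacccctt
These stretches are chr3:129893712-129893870 (TMCC1-DT, plus strand), chr14:95157530-95157687 (DICER1-AS1, plus), chr10:31320448-31320553 (ZEB1-AS1, minus), chr12:94459868-94460002 (CEP83-DT, plus), chr17:5191869-5192006 (ZNF594-DT, plus) and chr2:39437286-39437415 (MAP4K3-DT, plus). Each held GGGCGG at least 1 time, 4 times in TMCC1-DT, and none held TATAAA. The letters CCAAT were found in DICER1-AS1 and ZNF594-DT. Over whole promoter windows (250 bases before to 50 after a start, both strands, no searched motif containing another), GGGCGG stood in 65.4% of 136 windows of head-to-head members, 65.3% of 193 windows of their partners and 45.0% of all 35116 RefSeq promoters. TATAAA stood in 5.15%, 12.4% and 11.5%, CCAAT in 22.8%, 31.1% and 34.6%, and CCGGAA in 27.2%, 27.5% and 17.2%. In the first 1000 bases after the start, the poly(A) signal letters AATAAA were present in 25% of 132 head-to-head members and 12.1% of 132 partners, against 18.1% of all retained genes, and GGTAAG, letters of a 5′ splice site, in 19.7%, 23.5% and 23.5% (both on the transcribed strand, GRCh37). Among the 22209 listed genes that could be placed, AATAAA was present in 23.6%, close to the share of the head-to-head members, and GGTAAG in 25.9%. The median GC content of these 1000 bases was 56.75% in head-to-head members and 62.8% in their partners. It was 59.9% in retained genes and 57% in listed genes. These are descriptions of letters in windows, without a test.

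Most members were lower at 8 h than at 4 h. Of the 244, 79 fell and 8 rose (edgeR's quasi-likelihood test with Benjamini-Hochberg adjustment over all 12559 genes, adjusted p below 0.05, here called changed). Among all genes tested 18.8% fell and 19.9% rose, beside 32.4% and 3.28% of the members. The median log2 fold change, 8 h over 4 h, was -0.44 for the members, with quartiles of -0.83 and -0.05, and -0.00 for all genes. In 141 members (57.8%) both 8 h values lay below both 4 h values and in 24 (9.84%) above. Of the 141, 15 were among the 16 retained through 4 h alone, whose separation was largely set by selection. In all genes 34.9% lay below and 34.8% above, or 69.7% without overlap in either direction. Without the 16 members that passed the limit at 4 h alone, 71 of 228 fell (31.1%), 8 rose (3.51%) and the median was -0.40. Both 8 h values lay below both 4 h values in 126 of the 228 (55.3%) and above in 24 (10.5%). Over the 228 the share that fell stood above the background and the share that rose below it, though the 228 are not free of the selection. Members whose exons overlap none on the opposite strand gave 20 falls and 1 rise of 57, with a median of -0.51 (17 falls of 52 without the 16). Fewer falls passed without replicate 1 at 4 h (43, or 17.6%), without replicate 2 at 4 h (39, or 16.0%) and by DESeq2 (36, or 14.8%). Under the same settings 12%, 12.1% and 11.9% of all genes fell. The rises of members numbered 3 without replicate 2 at 4 h.

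**Figure D1:**
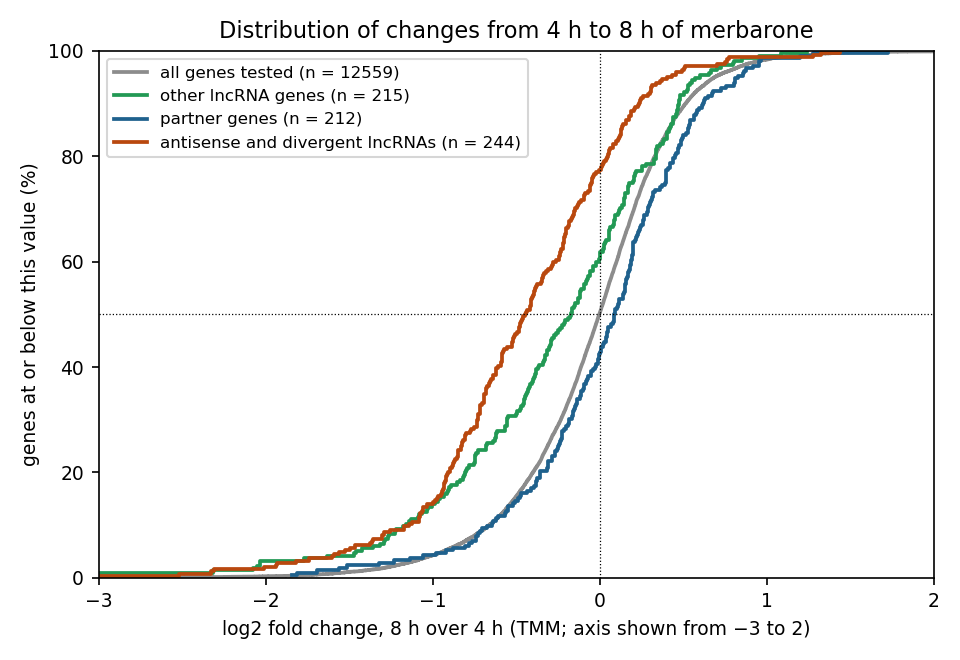
Cumulative share of genes (y axis, %) at or below each log2 fold change, 8 h over 4 h (x axis), for the 244 antisense and divergent lncRNAs, their 212 partner genes, 215 other lncRNA genes and all 12559 genes tested. The lncRNA curve lies to the left of the others over most of its range, with a median of -0.44 against 0.09 for the partners, -0.17 for other lncRNAs and -0.00 for all genes.

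A change above 1 on the log2 scale together with an adjusted p below 0.05 is called a DEG. Members gave 30 DEG falls and 3 DEG rises (12.3% and 1.23%), against 3.88% and 1.45% of all genes (5.33% in either direction). Other lncRNA genes gave 24 DEG falls and 1 DEG rise of 215 (11.2% and 0.465%), so a high share of DEG falls was not particular to the members. The DEG falls of members were 23 of -AS and 7 of -DT genes, and all 3 rises were head-to-head members. Without the 16 members retained through 4 h alone, 22 falls of 228 (9.65%) were left. The DEG falls numbered 13 by DESeq2, 17 without replicate 2 at 4 h and 17 after each library was corrected for its trend with mean level. After that correction 59 members fell (24.2%), 12 rose (4.92%) and the median was -0.29. Of all genes 18.1% fell and 18.7% rose after the same correction, so the excess of falls was smaller. The members are rare RNAs, and the trend therefore touches them: their median was 4.52 CPM (44.6 counts per library), against 30.4 CPM for all genes, and the part of level in the result was not tested further. Of the 122 members with the higher levels 50 fell and 7 rose, with 8 DEG falls, and of the 122 with the lower levels 29 fell and 1 rose, with 22 DEG falls. All 16 members retained through 4 h alone were among the latter, and without them 21 of 106 fell, with 14 DEG falls.

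As a group the members made up 0.266% and 0.270% of the counts in the 4 h replicates, against 0.218% and 0.204% in the 8 h replicates. The values of the times did not overlap. Members below the CPM limit summed to 72.7 and 76.0 CPM at 4 h and to 56.6 and 54.7 CPM at 8 h, also lower at 8 h in both replicates.

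The falls were spread over both endings and over pair types. Of 187 -AS members 60 fell and 6 rose (median log2 fold change -0.44), and of 57 -DT members 19 fell and 2 rose (-0.46). Head-to-head members gave 46 falls and 5 rises of 132 (-0.52), and members with overlapping exons 21 falls and 3 rises of 83 (-0.38). Members whose bodies overlap but not their exons gave 5 falls of 11, and those apart from the partner 3 of 5. Over the 228 members, 54 of 174 -AS, 17 of 54 -DT, 41 of 122 head-to-head members and 19 of 79 with overlapping exons fell. Other lncRNA genes gave 48 falls and 15 rises of 215 (-0.17), and protein-coding genes 2204 falls and 2441 rises of 11800 (0.01). Differences between these classes were not tested. By the annotated length of the lncRNA gene, among members with a retained partner, the 69 shortest (0.728 to 7.95 kb) had 29 falls and 1 rise, the next 67 (8.46 to 34.1 kb) 22 falls and 0 rises, and the 69 longest (35.0 to 380 kb) 15 falls and 6 rises. The medians were -0.59, -0.51 and -0.22. Without the 16 the falls numbered 25 of 63, 21 of 63 and 13 of 65.

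Among the members with the largest falls, 2 had a level of at least 10 CPM in both 4 h libraries. ZNF407-AS1 (chr18:72257553-72266121, minus strand, GRCh37), which starts 35 bases from the zinc finger gene ZNF407 and shares no exon with it, was at 16.0 and 19.2 CPM at 4 h and at 5.87 and 5.70 CPM at 8 h. Its log2 fold change was -1.60 (SE 0.20, adjusted p = 3.66e-06), while ZNF407 itself did not pass the test (-0.05, SE 0.19). ATP6V0E2-AS1 (chr7:149564786-149577699, minus), on the strand opposite to a subunit gene of the proton-pumping V-ATPase, was at 10.0 and 10.5 CPM at 4 h and at 3.52 and 3.24 CPM at 8 h (-1.59, SE 0.23, adjusted p = 2.65e-05). Both genes kept the 2 times well apart, though absence of overlap was a condition of naming them. Neither lost its call under any alternative run.

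PCGF3-AS1 (chr4:753990-775654, minus) overlaps 1514 exonic bases of PCGF3, a Polycomb ring finger gene. It was at 6.55 and 5.67 CPM at 4 h and at 0.747 and 1.43 CPM at 8 h, which was a log2 fold change of -2.52 (SE 0.35, adjusted p = 1.60e-05). LPP-AS2 (chr3:187868994-187871857, minus), head-to-head with the focal adhesion gene LPP, was at 3.37 and 4.54 CPM at 4 h and at 1.28 and 0.907 CPM at 8 h (-1.82, SE 0.38, adjusted p = 0.000835). These calls also held under every alternative run. LHX4-AS1, named after a LIM homeobox gene that was not retained, was at 5.24 and 3.40 CPM at 4 h and at 1.81 and 1.04 CPM at 8 h (-1.56, SE 0.37, adjusted p = 0.00238), and lost its call without replicate 1 at 4 h (-1.23, adjusted p = 0.0662).

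The next 6 members were among the 16 retained through their 4 h libraries alone, so that a lower value at 8 h was built into their selection, and their values are given with no test. DDX11-AS1 (chr12:31172368-31226781, minus) starts 74 bases from DDX11, a helicase gene of sister chromatid cohesion. It had 13 and 15 counts at 4 h and 0 in both libraries at 8 h, at least 7.50-fold lower when 3 counts over the 8 h group are taken as the floor. DDX11 has near-identical copies in the genome, so the counts of this pair are uncertain.

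RAET1E-AS1 had 13 and 13 counts at 4 h and 4 and 0 at 8 h. CEP83-DT (chr12:94853779-94856260, plus), divergent from a gene of the centriole's distal appendages, had 17 and 21 counts at 4 h and 6 and 0 at 8 h. USP27X-DT (chrX:49641327-49643844, minus), divergent from a deubiquitinase gene, had 15 and 21 counts at 4 h and 1 and 6 at 8 h. That the times did not overlap in these 3 genes was a condition of naming them.

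MORF4L2-AS1, head-to-head with a chromatin factor gene of the MORF4 family, had 18 and 16 counts at 4 h and 4 and 3 at 8 h. GATA6-AS1, beside the transcription factor gene GATA6, had 14 and 24 counts at 4 h and 6 and 3 at 8 h. DESeq2 gave none of these 6 an adjusted p.

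**Figure D2:**
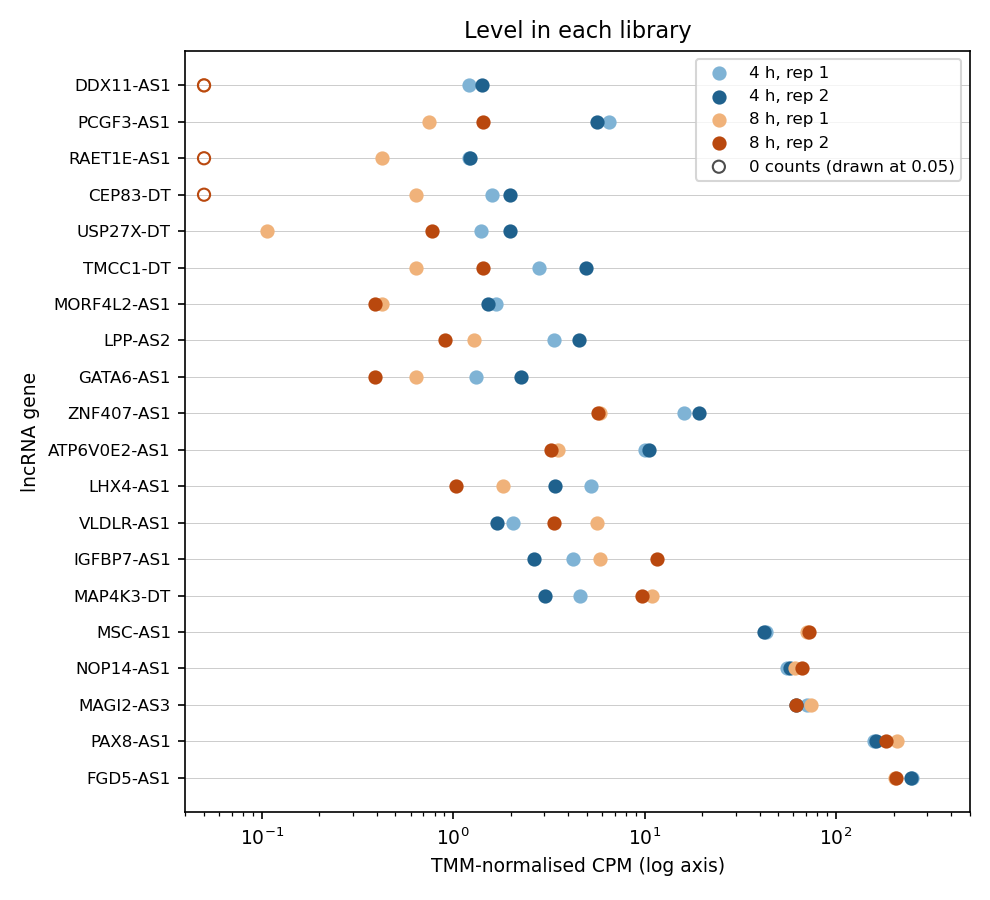
TMM-normalised CPM (x axis, log scale) in each of the 4 libraries for the 15 members that were DEGs without overlap between the times and the largest changes, and for the 5 most abundant members (1 row per gene, 1 point per library, open points for 0 counts). The falls at the top sit mostly under 10 CPM at 8 h, the 3 rises follow, and the abundant members at the bottom stand above 40 CPM in every library.

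Only 3 members rose past 1 on the log2 scale, each head-to-head with a partner that also rose. MAP4K3-DT (chr2:39663671-39892483, plus), divergent from a serine/threonine kinase gene, was at 4.59 and 3.03 CPM at 4 h and at 10.9 and 9.72 CPM at 8 h (1.44, SE 0.24, adjusted p = 0.00011). IGFBP7-AS1 (chr4:57975928-58073625, plus), opposite a gene for a secreted insulin-like growth factor binding protein, was at 4.21 and 2.65 CPM at 4 h and at 5.87 and 11.7 CPM at 8 h (1.32, SE 0.31, adjusted p = 0.00217). VLDLR-AS1 (chr9:2421597-2622457, minus), opposite the very low-density lipoprotein receptor gene, was at 2.06 and 1.70 CPM at 4 h and at 5.65 and 3.37 CPM at 8 h (1.28, SE 0.34, adjusted p = 0.00520). In both of the latter the 8 h replicates stood apart from each other. Without replicate 2 at 4 h IGFBP7-AS1 was at 1.03 (0.0515) and VLDLR-AS1 at 1.15 (0.0630), and without replicate 1 at 8 h VLDLR-AS1 was at 0.84 (0.116). Without replicate 2 at 8 h IGFBP7-AS1 was at 0.77 (0.0472), under the DEG limit.

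Of the 5 most abundant members, 2 rose, 1 fell and 2 were not called. MSC-AS1 (chr8:72740402-73030628, plus), head-to-head with MSC, the gene of the basic helix-loop-helix repressor musculin, rose from 43.1 and 42.3 CPM to 70.9 and 72.6 CPM (0.75, SE 0.10, adjusted p = 7.25e-06). PAX8-AS1 was at 157 and 161 CPM at 4 h and at 208 and 183 CPM at 8 h (0.30, SE 0.08, adjusted p = 0.00710), and lost its call without replicate 1 at 4 h (0.0895), without replicate 2 at 4 h (0.0511) and without replicate 1 at 8 h (0.0625), as well as with library size alone (0.0711) and with the level trend removed (0.0842). FGD5-AS1, the most abundant member, was at 251 and 247 CPM at 4 h and at 204 and 206 CPM at 8 h, a fall of small size (-0.28, SE 0.07, adjusted p = 0.00572; 0.0606 without replicate 1 at 4 h). MAGI2-AS3 (0.04, SE 0.11) and NOP14-AS1 (0.18, SE 0.10) did not pass the test. MAGI2-AS3 overlapped between the times, at 70.7 and 61.8 CPM and then 74.0 and 62.0 CPM. NOP14-AS1 was at 55.4 and 57.4 CPM at 4 h and at 61.2 and 66.5 CPM at 8 h.

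Each member was then compared with the gene in its name. The partner was retained for 214 members, which gave 212 distinct partner genes. Of these 57 rose and 40 fell, with a median log2 fold change of 0.09, so the partners did not show the downward shift of the lncRNAs. The member's log2 fold change lay below its partner's in 165 of 214 pairs, and in 152 of the 200 pairs without members retained through 4 h alone. Per kb of annotated exon the lncRNA was the rarer RNA in most pairs: the median log2 level of member over partner was -2.14, and 36 of 205 members stood above the partner.

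The log2 ratio of member to partner, taken within each library, fell in 68 pairs and rose in 10 (limma over 6616 pairs of neighbouring genes on opposite strands, adjusted p below 0.05). Over all pairs tested 23.7% fell and 13.0% rose, 36.7% in all. In the 6402 pairs without a member the ratio is that of the rarer to the more abundant gene. They gave 23.4% and 13.3%, also 36.7% in all. Member ratios are of member to partner whichever is rarer, so the background and the member pairs are not oriented alike. Among 811 other head-to-head pairs 24.9% fell and 9.49% rose, 34.4% in all. The median change of the log2 ratio was -0.56 in member pairs, -0.15 in the other head-to-head pairs and -0.11 in the remaining neighbours. Head-to-head members gave 48 falls and 4 rises of the ratio in 131 pairs, and members with overlapping exons 17 falls and 6 rises in 64. In -DT pairs the ratio fell in 23 and rose in 0 of 56. Where the annotated exons of the pair do not overlap, the ratio fell in 23 and rose in 1 of 63 pairs. Without the members retained through 4 h alone, 60 of 200 ratios fell and 10 rose, with a median of -0.51. The ratio then fell in 42 of 121 head-to-head pairs and in 15 of 61 pairs with overlapping exons. It fell in 21 of 53 -DT pairs, and in 19 of the 58 pairs whose exons do not overlap. Without replicate 1 at 4 h 40 ratios fell, and without replicate 2 at 4 h 38 fell and 4 rose. After correction for the trend with mean level 48 fell and 12 rose.

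**Figure D3:**
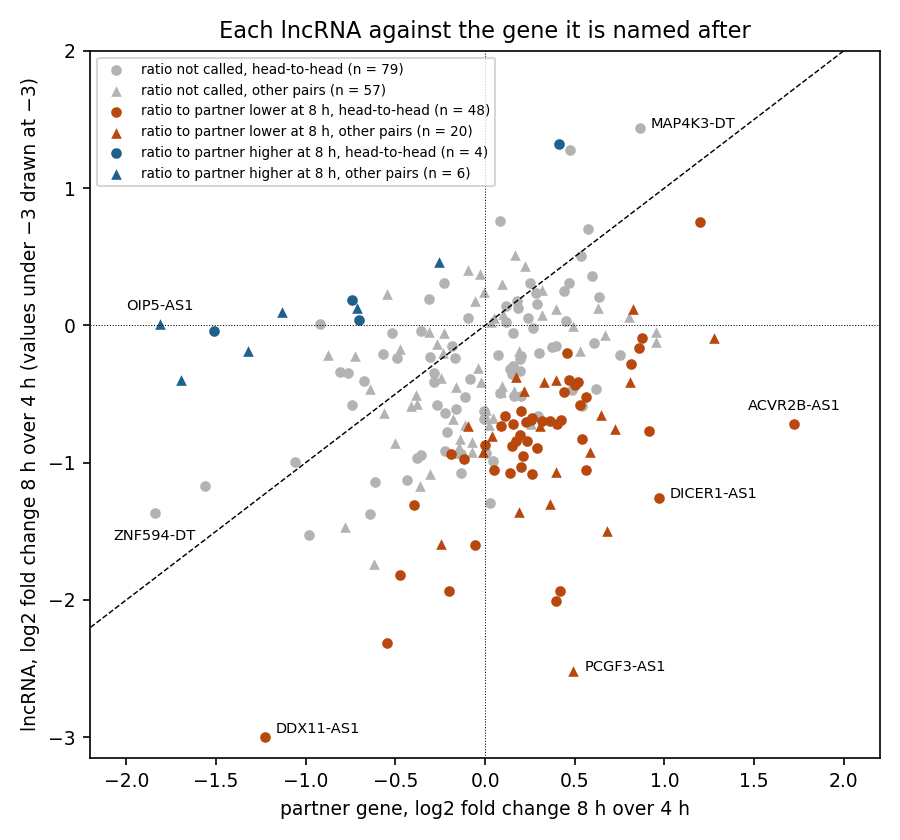
Log2 fold change, 8 h over 4 h, of each lncRNA (y axis) against that of the gene it is named after (x axis) in 214 pairs, with circles for head-to-head pairs, triangles for other pairs, colour for the call on the ratio and the dashed line for equal change. More points lie below the line (165) than above it, and the values scatter widely around it.

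Of the 68 lncRNAs that fell in these pairs, 36 had a partner that was not called, 20 a partner that fell and 12 a partner that rose. Over those 200 pairs the numbers were 35, 16 and 10 of 61. Of the 7 lncRNAs that rose, 5 had a partner that rose and 0 a partner that fell. Across the 131 head-to-head pairs the 2 log2 fold changes had a Spearman rho of 0.27. It was 0.33 in the 78 of them with overlapping exons and 0.19 in the 53 without. In the 64 pairs with overlapping exons but no head-to-head start it was -0.06. These describe genes in the same 4 libraries, which are not independent replicates, and other head-to-head neighbours gave 0.19.

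In the pairs that moved in opposite directions the lncRNA fell while the gene rose. PCGF3 was at 37.4 and 35.9 CPM at 4 h and at 48.8 and 54.6 CPM at 8 h (0.49, SE 0.11, adjusted p = 0.00131) while PCGF3-AS1 fell. The log2 ratio went from -2.47 and -2.62 to -5.68 and -5.07, a change of -2.83 (SE 0.35, adjusted p = 1.61e-05). TMCC1-DT (chr3:129612654-129637421, plus), divergent from a gene of an endoplasmic reticulum membrane protein, was at 2.81 and 4.92 CPM at 4 h and at 0.640 and 1.43 CPM at 8 h (-1.94, SE 0.43, adjusted p = 0.00153). TMCC1 rose (0.42, SE 0.12, adjusted p = 0.00834), the ratio changed by -2.16 (SE 0.41, adjusted p = 0.00067), and no exons are shared. Without replicate 2 at 4 h the fall of TMCC1-DT itself was -1.47 (adjusted p = 0.0534).

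DICER1, which encodes the enzyme that cuts microRNA precursors, rose from 18.8 and 19.3 CPM to 39.8 and 34.6 CPM (0.97, SE 0.13, adjusted p = 9.95e-06). DICER1-AS1 (chr14:95623982-95647812, plus) had 18 and 18 counts at 4 h and 7 and 5 at 8 h. KCTD21, a gene for a cullin adaptor, rose (0.68, SE 0.13, adjusted p = 0.000368), and KCTD21-AS1, which shares 1184 exonic bases with it, had 17 and 22 counts at 4 h and 7 and 4 at 8 h. Both lncRNAs were among the 16 retained through 4 h alone. Their log2 ratios to the partner, given with no test, went from -3.33 and -3.35 to -5.39 and -5.34 for DICER1-AS1 and from -3.50 and -3.10 to -5.04 and -5.49 for KCTD21-AS1.

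ZEB1-AS1 (chr10:31495207-31609376, minus) starts 475 bases from ZEB1 in the GRCh37 annotation (106 bases in RefSeq, as printed), ZEB1 being the gene of a transcription factor that represses epithelial genes. The lncRNA was at 12.4 and 12.01 CPM at 4 h and at 5.76 and 5.96 CPM at 8 h (-1.06, SE 0.20, adjusted p = 0.000395), with replicates close together and the times far apart. ZEB1 was at 54.6 and 55.1 CPM at 4 h and at 79.6 and 82.4 CPM at 8 h (0.56, SE 0.09, adjusted p = 9.22e-05). The ratio changed by -1.59 (SE 0.22, adjusted p = 4.79e-05). KMT2E-AS1, head-to-head with a gene of the histone methyltransferase family, was at 10.8 and 16.9 CPM at 4 h and at 7.36 and 8.94 CPM at 8 h (-0.77, SE 0.22, adjusted p = 0.00968; -0.41 and 0.275 without replicate 2 at 4 h). KMT2E rose from 31.9 and 33.9 CPM to 62.3 and 62.0 CPM (0.92, SE 0.10, adjusted p = 1.43e-06).

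ACVR2B-AS1 and USP27X-DT were also among the 6 largest falls of the ratio, and both were retained through 4 h alone. The ratio of USP27X-DT went from -1.78 and -1.49 to -4.66 and -2.87, and its change was -2.13 with all libraries, -1.23 without replicate 1 at 8 h and -3.03 without replicate 2 at 8 h. The ratio of ACVR2B-AS1 changed by -2.17. The lncRNA itself was not called (log2 fold change -0.72) and had 17 and 18 counts at 4 h and 9 and 8 at 8 h. ACVR2B, an activin receptor gene, was at 0.842 and 1.70 CPM at 4 h and at 5.44 and 2.85 CPM at 8 h (1.72, SE 0.40, adjusted p = 0.00216).

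**Figure D4:**
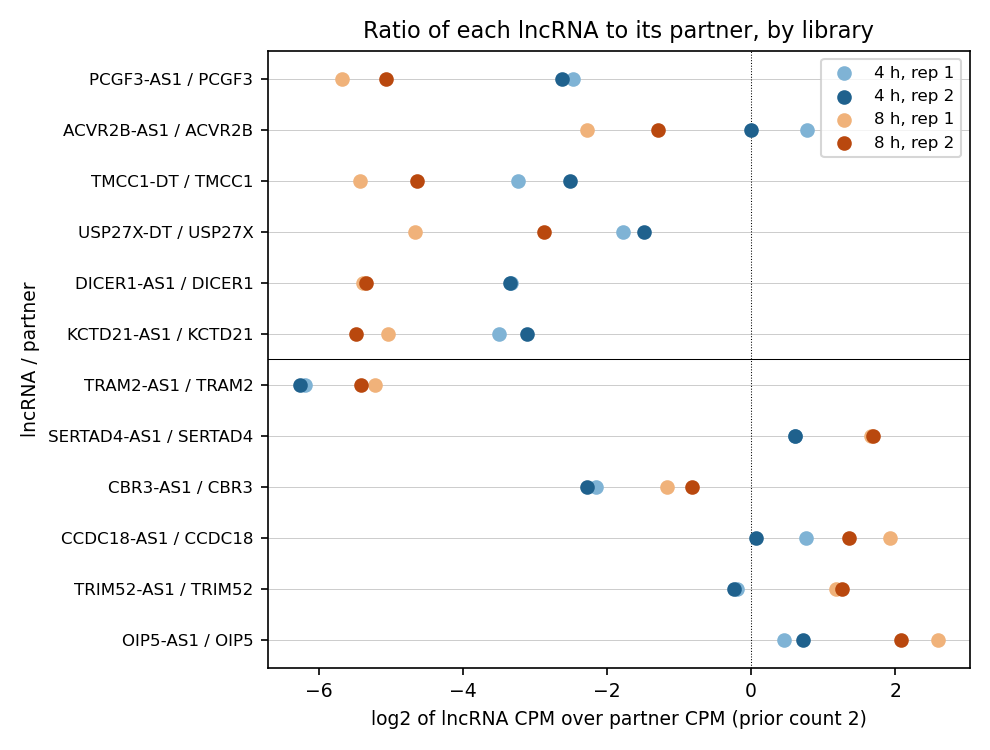
Log2 ratio of lncRNA to partner CPM (x axis, prior count 2) in each library for the 6 pairs with the largest fall of the ratio (above the line) and the 6 with the largest rise (below it). In every pair the 2 values at 8 h lie on one side of the 2 values at 4 h. The pairs were picked for a called change of the ratio, so this separation was largely set by the choice. ACVR2B-AS1, USP27X-DT, DICER1-AS1 and KCTD21-AS1 were also retained through their 4 h libraries alone.

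In the 6 largest rises of the ratio the partner fell and the lncRNA was not called with all 4 libraries. OIP5, which encodes a protein that helps load the centromeric histone, fell from 14.7 and 11.3 CPM to 3.41 and 4.02 CPM (-1.81, SE 0.23, adjusted p = 6.33e-06). OIP5-AS1 (chr15:41576156-41614590, plus) was at 20.3 and 18.8 CPM at 4 h and at 21.7 and 17.6 CPM at 8 h (0.01, SE 0.15), with overlapping times, and the ratio changed by 1.75 (SE 0.26, adjusted p = 8.13e-05). TRIM52-AS1, which shares no exon with its partner and starts 79 bases from it, was at 11.7 and 12.5 CPM at 4 h and at 11.1 and 12.4 CPM at 8 h, while TRIM52 fell from 13.4 and 14.8 CPM to 4.80 and 5.05 CPM (-1.51, SE 0.21, adjusted p = 1.16e-05). The other 4 were CCDC18-AS1, CBR3-AS1, SERTAD4-AS1 and TRAM2-AS1, with ratio changes of 1.23, 1.23, 1.07 and 0.92. Without replicate 1 at 8 h CCDC18-AS1 itself was called (-0.72, adjusted p = 0.0112). The ratio call was lost without replicate 2 at 4 h for CCDC18-AS1 (0.88, adjusted p = 0.119), and without replicate 1 or replicate 2 at 4 h for SERTAD4-AS1 (0.0822 and 0.0953).

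Among head-to-head pairs, 14 fell together and 5 rose together, and 11 and 5 did so without the members retained through 4 h alone. ZNF594-DT was at 3.56 and 3.12 CPM at 4 h and at 1.28 and 1.30 CPM at 8 h (-1.37, SE 0.37, adjusted p = 0.00609; 0.0571 without replicate 1 at 4 h and 0.0710 by DESeq2), and the zinc finger gene ZNF594 changed by -1.84 (SE 0.29, adjusted p = 7.13e-05). LPP changed by -0.48 (SE 0.09, adjusted p = 0.000552), less than LPP-AS2 by the ratio (-1.20, SE 0.38, adjusted p = 0.0209), a call lost without replicate 2 at 4 h (0.238), without replicate 2 at 8 h (0.0771) and with the trend removed (0.0684). DDX11 changed by -1.23 (SE 0.21, adjusted p = 0.000145) and CEP83 by -0.55 (SE 0.18, adjusted p = 0.0225), beside lncRNAs that were retained through 4 h alone.

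Among the pairs that rose together, MSC went from 124 and 145 CPM to 298 and 319 CPM (1.197, SE 0.09, adjusted p = 4.73e-09), more than its lncRNA: the ratio changed by -0.45 (SE 0.13, adjusted p = 0.0123), a call lost without replicate 1 at 4 h (0.182) or replicate 2 at 8 h (0.0512). MAP4K3 rose by 0.86 (SE 0.18, adjusted p = 0.000823), IGFBP7 by 0.41 (SE 0.08, adjusted p = 0.00028) and VLDLR by 0.48 (SE 0.12, adjusted p = 0.00431). CRIM1-DT (0.31, SE 0.12, adjusted p = 0.0486) rose with CRIM1 (0.25, SE 0.07, adjusted p = 0.00709), but lost its call without replicate 1 at 4 h (0.0867), replicate 2 at 4 h (0.295) or replicate 1 at 8 h (0.451), by DESeq2 (0.161), by Limma-Voom (0.0506) and with library size alone (0.190).

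The genes of the machinery that acts on such transcripts were counted in 4 lists. No gene of these lists was a DEG by edgeR. In the nuclear exosome and its cofactors 8 of 20 fell and 3 rose, with a median log2 fold change of -0.22. MTREX, the helicase that feeds RNA to the exosome, was at 48.2 and 47.5 CPM at 4 h and at 23.5 and 26.6 CPM at 8 h (-0.94, SE 0.12). ZFC3H1, of the adaptor that links polyadenylated nuclear RNA to the exosome, changed by -0.84 (SE 0.09), and EXOSC10, a catalytic exosome subunit, by -0.80 (SE 0.12). EXOSC4, of the exosome core, rose by 0.61 (SE 0.19).

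In Integrator, which cleaves nascent RNA near promoters, 4 of 14 fell and 1 rose (median -0.18), with INTS3 at -0.88 (SE 0.11) and INTS1 at 0.50 (SE 0.10). Among genes of polymerase pausing and its release, 5 of 12 rose and 3 fell (median 0.19). The pause-release kinase gene CDK9 rose by 0.43 (SE 0.09), while HEXIM1 and LARP7, which hold it inactive, changed by -0.53 (SE 0.10) and -0.57 (SE 0.12). In cap binding and early termination 4 of 10 fell and 1 rose (median -0.15), with the cap-complex partner SRRT at -0.58 (SE 0.10) and the cap-binding NCBP1 at -0.54 (SE 0.10). Against the background of 18.8% of genes that fell and 19.9% that rose, the 4 lists together gave 19 falls and 10 rises. Without replicate 1 at 4 h 10 falls and 6 rises passed, and without replicate 2 at 4 h 12 and 6. RNA levels of these genes say nothing of the activity of the complexes, and their part in the lncRNA levels was not tested.

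**Figure D5:**
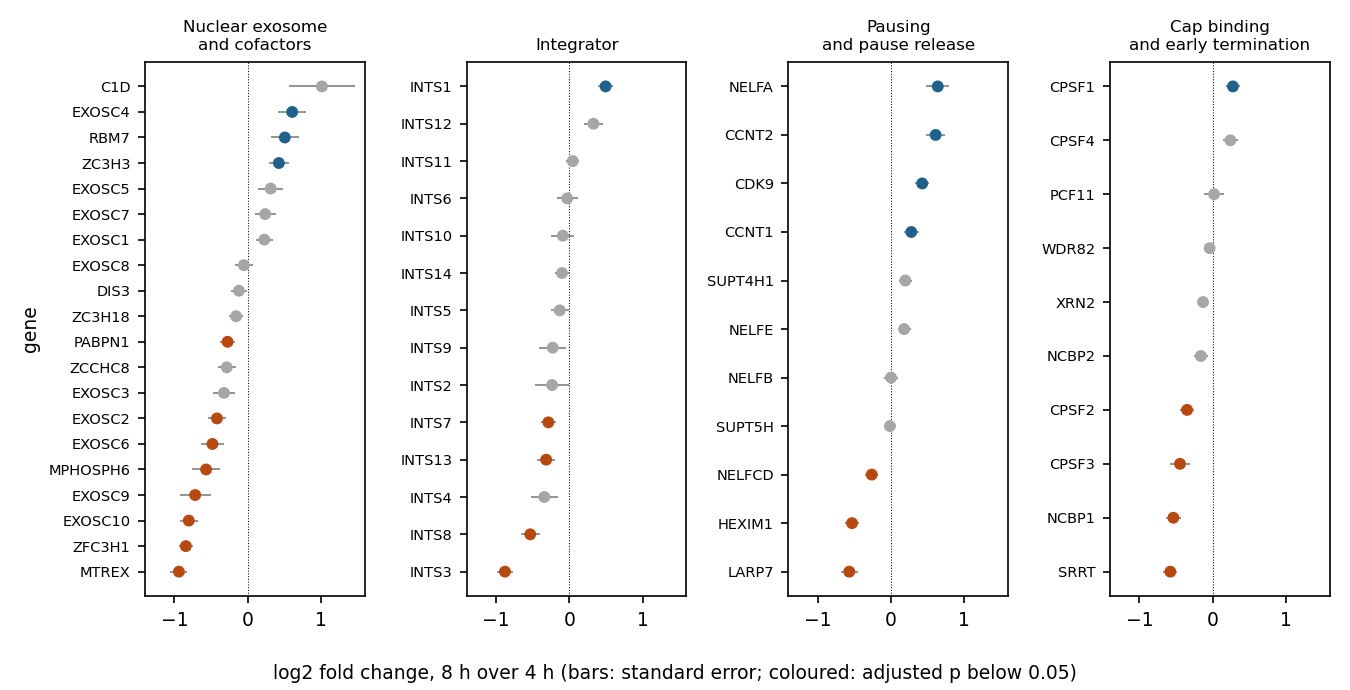
Log2 fold change, 8 h over 4 h (x axis), with its standard error, for the genes of the 4 machinery lists (y axis, 1 row per gene, 1 pausing gene not shown, coloured where the adjusted p is below 0.05). Exosome, Integrator and cap-binding genes lie more to the left of 0, with medians of -0.22, -0.18 and -0.15, and pausing genes to the right, with a median of 0.19.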

How the data were processed

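Polyadenylated RNA of RPE-1 cells was sequenced in 2 libraries per time. Reads were aligned by the authors with Bowtie (1.2.0 per the labels) against hg19. They kept reads with 1 position, and deposited raw counts per gene, unnormalized and without pooling. The mapping is unspliced, which loses reads across junctions. The annotation and strand setting of the counting are not given in the sources used here. The libraries held 10324697 and 10184486 counts (4 h) and 9669035 and 8064450 (8 h). The labels do not say that replicates were separate cultures, and the study calls them biological replicates.

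From the counts, genes with CPM above 1 in 2 libraries were kept, normalized by TMM and tested with edgeR 4.0.16 (quasi-likelihood, time as the only term, R 4.3.3) with Benjamini-Hochberg adjustment over 12559 genes. The standard error is the log2 fold change divided by the square root of F. Printed CPM of members, partners and machinery genes are TMM-normalised, and marker CPM are not. Log2 ratios of member to partner (prior count 2) were tested with limma 3.58.1 over 6616 pairs of opposite-strand neighbours. Symbols and gene types were read from RefSeq (GRCh38.p14), and GENCODE 44 gave the GRCh37 positions. RefSeq promoters matched 208 of 244 members. On simulated counts edgeR recovered 98.5% of 200 changed genes with 17 false calls among 12559. Limma recovered 95.9% of 194 changed pairs with 8 false calls. The changed genes were drawn from those with a mean count of at least 20 and were moved by more than the DEG limit. These rates do not cover rarer members or smaller changes. An exact permutation test of 2 against 2 libraries cannot go below p = 0.333, so none is given.

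The named members were, by rule, DEGs without overlap between the times (up to 12 rises and 12 falls), the 5 most abundant members, the 6 largest rises and falls of the ratio among called pairs, the 5 head-to-head pairs that rose or fell together the most, and up to 6 members called in the direction opposite to a called partner. The members, lists and rules were chosen with earlier results of these data known. Alternatives were Limma-Voom, DESeq2 1.42.0, other scalings and gene filters, a correction for the trend with mean level, the replicate number as a block, other prior counts and pair filters, subsets by exon overlap, and leaving out each library. A filter on mean CPM and the subset with CPM above 1 in a library of each time were added after seeing the data. GNAS-AS1 and TRAF3IP2-AS1, of another RefSeq gene type, did not enter. A few items that the rules or lists name are not reported here, though counts and medians include them.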

Additional observations from a re-analysis of the deposited data

How the results depend on the processing

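The members are thinly counted, with a median of 44.6 counts per library, and there are 2 libraries per time. Members that fell numbered 36 by DESeq2 (79 as reported), and DEG falls 13 by DESeq2, 46 with library size alone and 17 with the abundance trend removed (30 as reported). Library size alone left 5 rises of members, against 8, and gave 96 falls (39.3%), where 26.2% of all genes fell. The median log2 fold change of members (-0.44) was -0.55 with library size alone, -0.48 with no CPM filter and -0.29 with the trend removed. It was -0.40 with CPM above 1 in a library of each time and -0.51 in members without opposite-strand exon overlap. In those 57 members 1 rose and 20 fell, with 0 DEG rises and 6 DEG falls, fewer because fewer genes are in the subset. The 0 is by edgeR on a subset of the same fit, and the causes of the other shifts were not tested. The median change of the log2 ratio (-0.56) was -0.59 with a prior count of 0.5, -0.52 in pairs with a mean count of at least 20 in both genes, -0.38 with the trend removed and -0.54 in the 63 pairs without partner exon overlap, where 1 ratio rose and 23 fell. Machinery genes that rose numbered 6 with library size alone, against 10.

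Leaving out each library in turn gave 3 to 9 rises and 39 to 77 falls of members, 1 to 3 DEG rises and 17 to 43 DEG falls, and medians from -0.50 to -0.37. It gave 4 to 12 rises and 38 to 78 falls of the ratio, with medians from -0.59 to -0.42, and 6 to 10 rises and 10 to 20 falls of machinery genes. The lowest numbers of rises and falls came without a 4 h library. The lone sample left at a time is then assumed to vary like the other time.

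Same-numbered libraries did not deviate together (r = 0.048 over all genes and 0.045 over the members, 2 pairs), so the number was not taken as a pairing. With the replicate block 9 members rose and 90 fell (3.69% and 36.9%), against 22.5% and 21.2% of all genes. It gave 3 and 33 DEGs of members, medians of -0.44 and -0.56 (log2 fold change and ratio), and 11 ratios rising and 73 falling. Of the machinery genes 12 rose and 20 fell.

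Limma-Voom gave 7 rises and 76 falls, and RLE size factors 8 and 79. A CPM above 2 gave 8 and 75 of 193 members, no CPM filter 9 and 84 of 479, and a mean CPM above 1 gave 8 and 79 of 239. The share of all genes that fell was 18.6% by Limma-Voom and 18.8% with RLE size factors. It was 20.4% with a CPM above 2, 14.3% with no CPM filter and 19.3% with a mean CPM above 1. For the named members, 369 log2 fold changes under an alternative kept direction and side of the threshold, 43 lost the call, 1 gained it and 12 turned sign, and 6 members had no adjusted p by DESeq2; for the ratio these numbers were 213, 22, 4 and 1. The sign turned near 0, in members that were not called: CBR3-AS1 (-0.0089) with library size alone; MAGI2-AS3 with library size alone (-0.064), with the trend removed (-0.0153) and between -0.0971 and 0.16 when libraries were left out; OIP5-AS1 with library size alone (-0.0928) and between -0.151 and 0.146 with libraries left out; SERTAD4-AS1 between -0.364 and 0.0048 with libraries left out; TRIM52-AS1 with the trend removed (0.094) and between -0.124 and 0.0413 with libraries left out; and the ratio of CRIM1-DT, between -0.153 and 0.251 with libraries left out.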
